A study of Mus musculus with 23 samples.

Results

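The genes described here are H2-K1, H2-D1, B2m, Tap1, Tap2, Tapbp, Psmb8, Psmb9 and Psmb10, which make and load major histocompatibility complex (MHC) class I molecules. They were taken by symbol from an Illumina MouseRef-8 v2 bead array, where 8 of the 9 genes had a probe. Together these 8 genes had 12 of the 25697 probes on the array, which carries 18096 gene symbols. No probe carried the symbol H2-D1, and this gene was not analysed here. Of the 12 member probes, 10 stood above background on at least 1 of the 23 arrays, and 2 did not. The study compared mouse hematopoietic progenitors made from embryonic stem cells (ESCs) with native progenitors, and all 6 groups carried the strain label 129X1/SvJ x 129S1. Undifferentiated cells (3 arrays) were ESCs of the R1 line at day 0, grown on inactivated embryonic fibroblast feeders and not sorted. Static (3 arrays), Spinner (3 arrays) and Synthecon (8 arrays) were day 7 ESC-derived cells from embryoid bodies in still flasks, stirred flasks and rotating vessels, sorted for c-kit and Sca-1 without lineage depletion. The native LKS cells, BM (3 arrays, bone marrow of mice aged 10 weeks) and FL (3 arrays, fetal liver of E15 embryos), were lineage-depleted and then sorted for the same 2 markers. Spinner and Synthecon together are called dynamic culture, and BM and FL together native.

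MHC class I molecules show peptides from a cell's own proteins to CD8+ T cells and are read by natural killer cells. Proteasomes cut proteins into peptides, the TAP transporter carries them into the endoplasmic reticulum, and tapasin holds the transporter beside empty class I molecules until a peptide binds. A class I molecule is a heavy chain, such as H2-K1, bound to beta-2 microglobulin, the product of B2m. The immunoproteasome carries the catalytic subunits Psmb8, Psmb9 and Psmb10 in place of the standard Psmb5, Psmb6 and Psmb7. Interferon-gamma induces most of these genes, in part through the IRF factors, and Nlrc5 is a transactivator of class I promoters. Mouse ESCs are known for low surface class I, and blood cells for high surface class I.

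The promoters of 5 members are shown because the motifs in them differ between the heavy and light chains and the other members. Each is the 150 bases before the RefSeq transcription start on GRCm38.p6, written 5′ to 3′ along the gene's strand, and comes from the reference strain C57BL/6J, not from the strain of the study. Capitals mark a match to one of the 3 patterns below.
H2-K1, chr17:34000334-34000483, minus strand: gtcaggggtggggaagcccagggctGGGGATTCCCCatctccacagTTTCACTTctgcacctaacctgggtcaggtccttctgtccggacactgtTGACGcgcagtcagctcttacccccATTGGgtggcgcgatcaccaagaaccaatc
B2m, chr2:122147537-122147686, plus strand: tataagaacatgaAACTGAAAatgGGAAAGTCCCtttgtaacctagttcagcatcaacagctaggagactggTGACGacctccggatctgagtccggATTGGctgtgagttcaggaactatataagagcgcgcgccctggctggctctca
Tap1, chr17:34187406-34187555, plus strand: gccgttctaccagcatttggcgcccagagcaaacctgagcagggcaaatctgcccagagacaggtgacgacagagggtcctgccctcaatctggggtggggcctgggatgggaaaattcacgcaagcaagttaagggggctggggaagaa
Psmb8, chr17:34198045-34198194, plus strand: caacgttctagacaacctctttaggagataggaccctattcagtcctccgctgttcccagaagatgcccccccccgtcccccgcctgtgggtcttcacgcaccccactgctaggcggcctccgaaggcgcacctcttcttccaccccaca
Psmb10, chr8:105938393-105938542, minus strand: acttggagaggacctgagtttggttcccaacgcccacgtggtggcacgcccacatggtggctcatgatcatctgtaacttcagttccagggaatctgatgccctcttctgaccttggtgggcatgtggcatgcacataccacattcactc

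The patterns were searched on both strands in the 250 bases before the start, and their shares were taken over 32851 RefSeq promoters. The NF-kappaB consensus was in 7.25% of all promoters and the IRF core AANNGAAA in 21.3%. The third pattern, chosen after these promoters were seen, was TGACG followed by ATTGG with 15 to 25 letters between, the order of the X2 and Y boxes of MHC promoters, and 0.381% of promoters held it. H2-K1, H2-D1 and B2m each held the NF-kappaB consensus, the IRF core and the TGACG and ATTGG pair with 20 letters between. These 3 patterns stood together in 8 of the 32851 promoters (0.0244%). The promoters of these 3 genes are among the 8, H2-K1 with 2 starts, so this share is not separate from the members. Tap1, Psmb8, Psmb9, Tapbp and Psmb10 held none of the 3 in this window. Overlapping matches to the NF-kappaB consensus were counted as separate. Tap1 and Psmb9 lie head to head on chromosome 17, with 225 letters between their starts. Of the 9 genes, 8 matched a promoter in the table, and Tap2 is named only. A match describes letters and not a bound factor.

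The values below are the deposited log2 quantile-normalized intensities, in which a probe's level can be compared between samples but not with another probe's. A probe was above background on an array when its detection p was under 0.01. Between 9785 and 11204 probes passed this on each array. The 8 Synthecon arrays fell into an odd-numbered and an even-numbered set, and within a set on 1 slide the arrays differed by a median of 0.0625 to 0.0724 log2 units, against 0.0882 to 0.442 between the arrays of any other group. Between slides the gap within a set was 0.201 to 0.218, and between the sets it was 0.163 to 0.282. The labels do not say whether a set is 1 culture, and the arrays were counted as 2 samples, the mean of each set, which gave 17 samples. Tests were made with limma over all 25697 probes, with Benjamini-Hochberg adjustment within each comparison and a call at an adjusted p under 0.05. The labels call the arrays replicates, nothing says which came from separate cultures or animals, and the p-values measure only the spread between these samples.

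Cell type markers set the frame for these values. Of the ESC markers, 8 of 8 were above background on every undifferentiated, Spinner and Synthecon array, and 0 or 1 on native arrays. Their summed linear intensity was 59480 to 79106 in dynamic culture and 518 to 627 in native cells. Static arrays spread between these levels, at 61587, 9623 and 3683 for replicates 1, 2 and 3. Of 10 leukocyte markers, 9 or 10 were above background on each native array, and on single Static arrays 5, 9 and 9 were, with summed intensities of 3965, 28202 and 24459. The leukocyte sum was 43526 to 108148 in native cells, 3818 to 8026 in dynamic culture and 3171 to 9076 in undifferentiated cells. Ptprc, which encodes CD45, was not above background on any ESC-derived array. Ly6a, which encodes Sca-1, was higher in dynamic than in native cells by 1.82 log2 units (SE 0.44, limma adjusted p = 0.00353). Its Synthecon arrays read 10.39 to 11.52, while Spinner arrays read 8.92 to 9.65 and overlapped the native ones, at 7.84 to 9.32. The unsorted undifferentiated arrays read 8.95, 11.89 and 9. Kit had no probe. Of the 9 LKS markers with a probe, 2 to 5 were above background on each ESC-derived day 7 array, and 6 or 7 on each native array. The part of cell makeup in the results below was not tested. In bulk samples such as these, fewer cells of a type and less RNA per cell cannot be told apart.

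All 8 measured member genes were lower in Static and in dynamic cells than in native LKS cells. For H2-K1 this rested on BM, since no FL, Static or dynamic array was above background. In Static against native, 8 of 8 were called lower, where 13.8% of all probes were called lower and 12.9% higher. In dynamic against native, 8 of 8 were again called lower, where 18.2% of all probes were called lower and 18.9% higher. These comparisons share their native samples, so they are not separate evidence. The median difference over the 8 genes was -1.53 log2 units in Static, where the median of all probes was -0.03. It was -2.18 in dynamic culture, where the median of all probes was -0.01. By probe, 11 of 12 were called lower in each comparison, and the exception was B2m probe 2650220, which was not above background on any array. Across the 6 groups, the limma F test called 8 of 8 genes, where it called 43.5% of all probes. The arrays lay on 3 slides, and on slide 1, where BM replicate 1 is the only native array and is assumed to vary like the other groups, 7 of 8 genes were called lower in Static and 7 of 8 in dynamic culture, B2m being the exception in both (-2.17 and -2.72, limma adjusted p = 0.197 and 0.0915). On slide 2, which holds 5 native, 1 Spinner and 2 Synthecon arrays, 8 of 8 were called lower in dynamic culture.

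**Figure D1:**
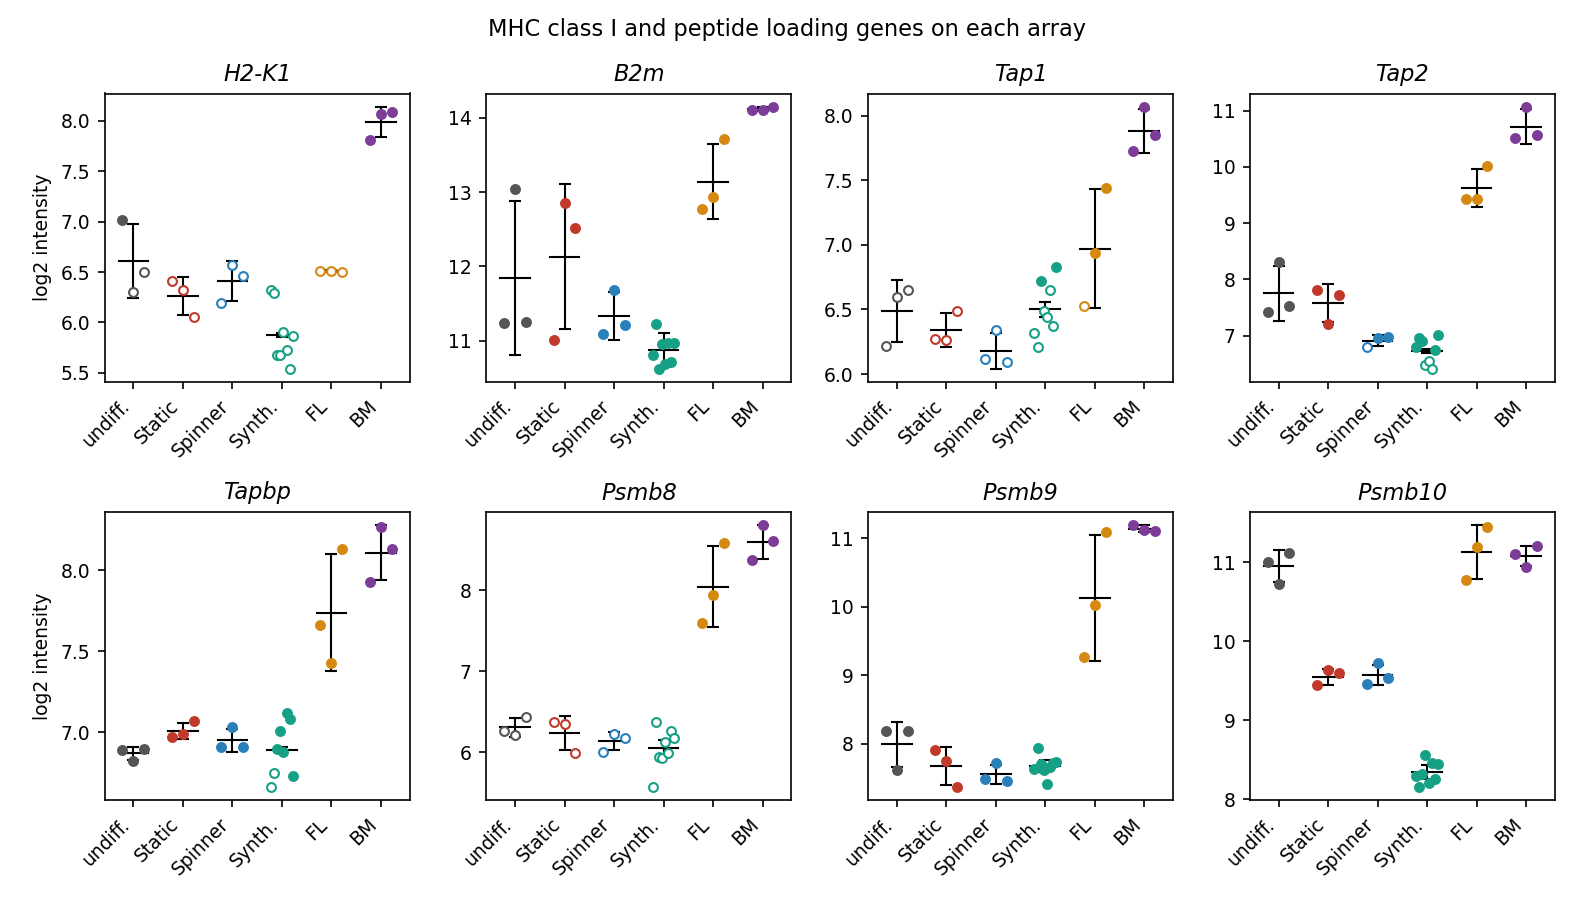
Log2 intensity of each member's main probe on every array, by group. Filled points were above background and open points were not, and black lines and bars are the mean ± SD over samples (n = 3, and n = 2 sets for Synthecon). BM and FL arrays lie above the other groups for Tap2, Psmb8 and Psmb9, while for H2-K1 only BM does and for Psmb10 the undifferentiated arrays lie beside the native ones.

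H2-K1 encodes a classical class I heavy chain, the polymorphic chain that holds the peptide. It was above background on all 3 BM arrays, at 7.81, 8.07 and 8.09. The 3 FL arrays read 6.51, 6.51 and 6.50, the Static arrays 6.41, 6.32 and 6.05, and the Spinner arrays 6.19, 6.57 and 6.46, none of them above background. The 8 Synthecon arrays, also below it, had a lowest value of 5.54, a median of 5.8 and a highest of 6.32. Among undifferentiated cells 1 array was above background, with values of 7.02, 6.30 and 6.50. BM therefore stood apart from every other group, and FL overlapped Spinner. The call against native cells rested on BM, and H2-K1 was at least 1.37-fold lower in Static (-0.99, SE 0.15, limma adjusted p = 1.0e-04) and at least 1.41-fold lower in dynamic culture (-1.11, SE 0.13, limma adjusted p = 3.9e-06). These are lower bounds, set against the dimmest signal that counted as above background.

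B2m encodes the light chain, which every classical class I molecule needs. Its main probe was above background on all 23 arrays. BM read 14.10, 14.10 and 14.15, and FL read 12.77, 12.94 and 13.71. The Static arrays read 11.01, 12.85 and 12.52, so that replicates 2 and 3 lay beside FL and replicate 1 lay with dynamic culture. Spinner read 11.09, 11.68 and 11.21, and Synthecon ran from 10.62 through a median of 10.88 to 11.22. No dynamic array reached a native one. B2m was 5.79-fold lower in dynamic than in native cells (-2.53, SE 0.35, limma adjusted p = 2.3e-05) and 2.83-fold lower in Static (-1.50, SE 0.40, limma adjusted p = 0.0105). Without Static replicate 1 the Static difference was -0.95 and no longer called (limma adjusted p = 0.0822). That replicate also had the highest ESC marker sum and the lowest leukocyte sum of the Static arrays.

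Undifferentiated cells read 11.24, 13.04 and 11.25 for B2m, and replicate 2 stood well above the others, inside the FL range. The same array had the highest summed intensity of feeder fibroblast markers in its group (3874, against 1431 and 1254), and their part in its B2m level was not tested. On Static replicates 1, 2 and 3 these markers summed to 1731, 12656 and 3320, and their part there was not tested either. A second B2m probe, 6110736, gave the same calls, with group means from 10.79 in Synthecon to 14.14 in BM.

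Tap1 and Tap2 encode the chains that together form the TAP peptide transporter. Tap2 read 10.51, 11.07 and 10.56 in BM and 9.43, 9.42 and 10.01 in FL. The Static arrays read 7.81, 7.21 and 7.73 and the Spinner arrays 6.79, 6.96 and 6.98, while Synthecon ran from 6.41 through a median of 6.77 to 7.02. Undifferentiated cells lay at 7.42, 8.31 and 7.53. The highest array outside the native groups, at 8.31, lay under the lowest native array, at 9.42. Tap2 was 6.00-fold lower in Static (-2.59, SE 0.22, limma adjusted p = 2.6e-07) and 10.2-fold lower in dynamic culture (-3.35, SE 0.19, limma adjusted p = 2.1e-09), where 7 of 11 arrays were above background.

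Tap1 was dimmer. It read 7.73, 8.07 and 7.85 in BM and 6.53, 6.94 and 7.44 in FL, where the first was not above background. No Static, Spinner or undifferentiated array was above background, with values from 6.09 to 6.65. Synthecon ran from 6.21 through 6.46 to 6.83, and 2 of its 8 arrays were above background. The Static arrays did not overlap native ones but Synthecon overlapped FL. Tap1 was at least 1.54-fold lower in Static (-1.09, SE 0.17, limma adjusted p = 1.5e-04) and also lower in dynamic culture (-1.08, SE 0.15, limma adjusted p = 1.9e-05), where 2 of 11 arrays were above background.

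Tapbp encodes tapasin, the bridge between TAP and the heavy chain, and its range was narrow. It read 7.93, 8.27 and 8.13 in BM and 7.66, 7.43 and 8.13 in FL. Static arrays read 6.97, 6.99 and 7.07, and Spinner arrays 6.91, 7.03 and 6.91. Synthecon ran from 6.66 through 6.89 to 7.12, and undifferentiated cells read 6.89, 6.82 and 6.90. Every native array lay above every other array. Tapbp was 1.89-fold lower in Static (-0.92, SE 0.14, limma adjusted p = 1.4e-04) and 2.01-fold lower in dynamic culture (-1.0, SE 0.12, limma adjusted p = 6.6e-06), where 9 of 11 arrays were above background. Another Tapbp probe, 3140386, was called lower in both comparisons although it was not above background on any array.

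The immunoproteasome subunits split into a pair that separated native cells from all others and Psmb10, which did not. Psmb8, the chymotrypsin-like subunit also called LMP7, was above background only in native cells, at 8.37, 8.80 and 8.60 in BM and 7.59, 7.94 and 8.58 in FL. On the other 17 arrays it lay between 5.57 and 6.44, none above background. It was at least 2.85-fold lower in Static (-2.08, SE 0.18, limma adjusted p = 3.2e-07) and at least 2.95-fold lower in dynamic culture (-2.22, SE 0.16, limma adjusted p = 2.0e-08).

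Psmb9, the subunit also called LMP2 and the gene that faces Tap1, read 11.19, 11.12 and 11.10 in BM and 9.26, 10.03 and 11.09 in FL. The Static arrays read 7.91, 7.75 and 7.36, and the Spinner arrays 7.48, 7.71 and 7.46. Synthecon ran from 7.41 through 7.67 to 7.93, and undifferentiated cells read 8.19, 7.61 and 8.18. Psmb9 stayed above background in every group, and the highest array outside the native cells, at 8.19, lay under the lowest native one, at 9.26. It was 7.79-fold lower in Static (-2.96, SE 0.28, limma adjusted p = 9.9e-07) and 8.12-fold lower in dynamic culture (-3.02, SE 0.25, limma adjusted p = 9.2e-08).

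Psmb10, the trypsin-like subunit also called MECL-1, followed another order. It read 11.11, 10.94 and 11.20 in BM, 10.77, 11.19 and 11.44 in FL, and 11, 10.73 and 11.12 in undifferentiated cells. The Static arrays read 9.44, 9.63 and 9.60, and the Spinner arrays 9.46, 9.72 and 9.54. Synthecon ran from 8.15 through 8.31 to 8.56, under every other array. The undifferentiated and native ranges overlapped, and the day 7 groups lay under both. Psmb10 was 2.93-fold lower in Static than in native cells (-1.55, SE 0.16, limma adjusted p = 1.9e-06) and 4.44-fold lower in dynamic culture (-2.15, SE 0.14, limma adjusted p = 7.4e-09).

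**Figure D2:**
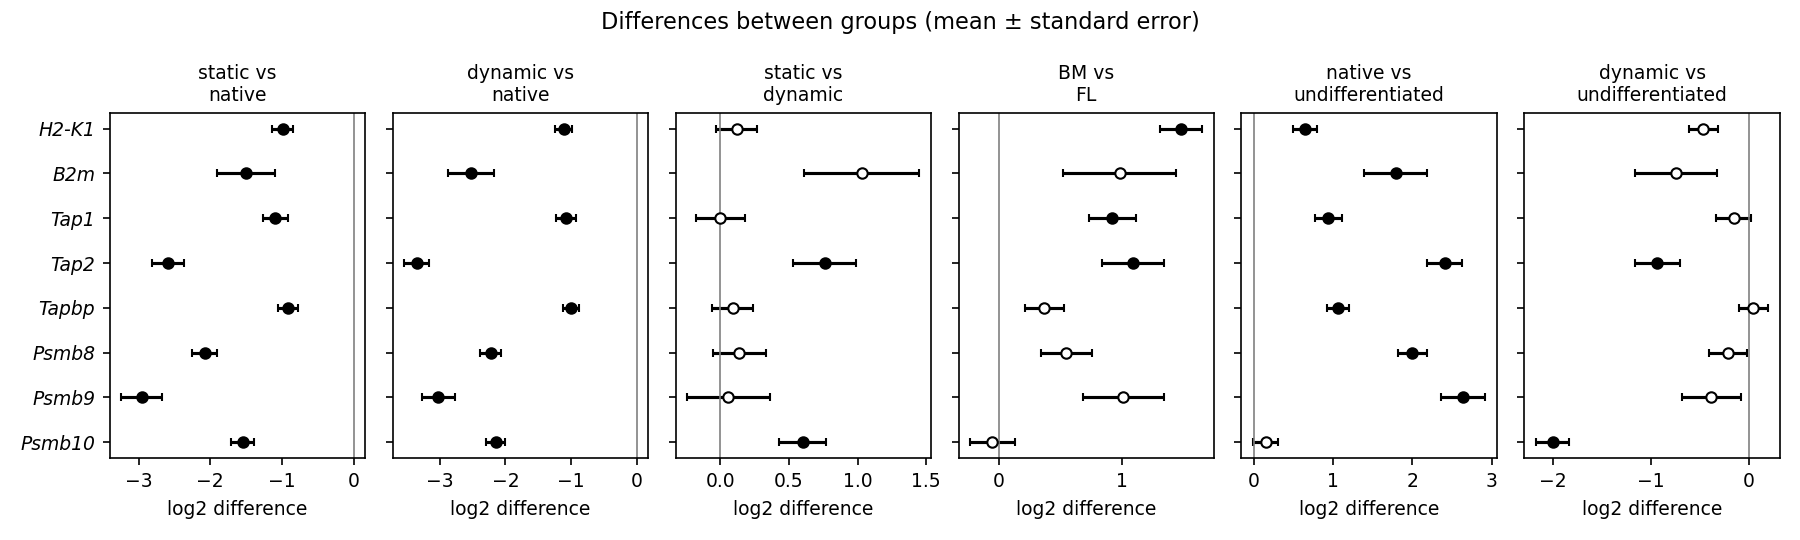
Log2 difference of each member's main probe in the comparisons of the study, with bars of 1 standard error. Filled points were called by limma at an adjusted p under 0.05. The differences from native cells run from -0.92 for Tapbp to -3.35 for Tap2.

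Day 0 cells were then set against the other groups. Native cells were higher than undifferentiated cells for 7 of 8 members, where 15.4% of all probes were called higher and 16.2% lower, with a median difference of 1.42 over the 8 genes. Psmb9 was 6.24-fold higher, Tap2 5.33-fold higher, B2m 3.46-fold higher and Psmb8 at least 2.83-fold higher (limma adjusted p from 4.7e-07 to 0.0026). Psmb10 was not called, at 0.15 (SE 0.16, limma adjusted p = 0.527). Between day 0 and day 7, only Psmb10 was called in Static culture. It was 2.64-fold lower (-1.40, SE 0.18, limma adjusted p = 2.2e-04), 1 of 8 members, where 6.81% of all probes were called lower. In dynamic culture 2 of 8 were called lower, against 4.21% of all probes. Psmb10 was 3.99-fold lower (-2.0, SE 0.17, limma adjusted p = 9.3e-06) and Tap2 1.91-fold lower (-0.93, SE 0.23, limma adjusted p = 0.0161). The Tap2 call was lost without undifferentiated replicate 2 (-0.65, limma adjusted p = 0.0923). No member was called higher at day 7 than at day 0, and with all 8 members B2m in Static had the largest positive difference (0.29, SE 0.46, limma adjusted p = 0.763). The comparisons with day 0 share the undifferentiated arrays.

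Between the culture systems few members differed. In Static against dynamic culture 2 of 8 were called higher, where 6.55% of all probes were called higher and 7.64% lower. Tap2 was 1.69-fold higher in Static (0.76, SE 0.23, limma adjusted p = 0.0355), and its arrays did not overlap, but 12 of 31 alternatives ended this call. Psmb10 was 1.51-fold higher (0.60, SE 0.17, limma adjusted p = 0.0233). Spinner and Static read alike for Psmb10, and within slide 1, which holds Static and Spinner but no Synthecon array, its difference was -0.05 (limma adjusted p = 0.936). The call was also lost without Static replicate 2 (0.56) or 3 (0.58), without Spinner replicate 1 (0.57), and without the odd-numbered Synthecon set (0.57), and Psmb10's other probe, 5870398, gave 0.24 and was not called. B2m was higher in Static by 1.03 (SE 0.42) and not called (limma adjusted p = 0.123), and without Static replicate 1 the difference was 1.59 and called (limma adjusted p = 0.00774). In Spinner against Synthecon only Psmb10 was called, 1 of 8, where 0.988% of all probes were called higher. It was 2.35-fold higher in Spinner (1.23, SE 0.20, limma adjusted p = 0.00451). This call was lost without the odd-numbered Synthecon set (1.17, limma adjusted p = 0.0775), and the other probe gave 0.43 and was not called.

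BM was set against FL to compare adult with fetal progenitors. H2-K1, Tap1 and Tap2 were called higher in BM, 3 of 8 members, where 0.841% of all probes were called higher. H2-K1 was at least 2.08-fold higher (1.48, SE 0.17, limma adjusted p = 1.6e-04), Tap1 1.89-fold (0.92, SE 0.19, limma adjusted p = 0.0268) and Tap2 2.13-fold (1.09, SE 0.25, limma adjusted p = 0.0485), though 17 of 30 alternatives ended the Tap2 call. Psmb9 (1.01, limma adjusted p = 0.227), B2m (0.98, limma adjusted p = 0.509) and Psmb8 (0.55, limma adjusted p = 0.341) were not called, and Psmb10 differed by -0.05 (limma adjusted p = 0.978). FL replicate 3 was the highest FL array for 7 of 8 members, all but H2-K1. On it the leukocyte markers summed to 90185, against 43526 and 58937 on the other FL arrays, and the macrophage and dendritic cell markers to 29575, against 7116 and 12843. Its erythroid markers summed to 37914, against 113991 and 87728. BM arrays varied too. On BM replicates 1, 2 and 3 the leukocyte markers summed to 52340, 108148 and 77619. The macrophage and dendritic cell markers summed there to 3618, 26729 and 25881, and the erythroid markers to 42871, 80414 and 92851. The part of these cells in the FL and BM values was not tested. Without FL replicate 3, Psmb9 (1.49, limma adjusted p = 0.00452) and Psmb8 (0.82, limma adjusted p = 0.0265) were called too, and 5 of 8 members were then higher in BM. Leaving out FL replicate 1, FL replicate 2, BM replicate 2 or BM replicate 3 left 1 of 8 called.

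**Figure D3:**
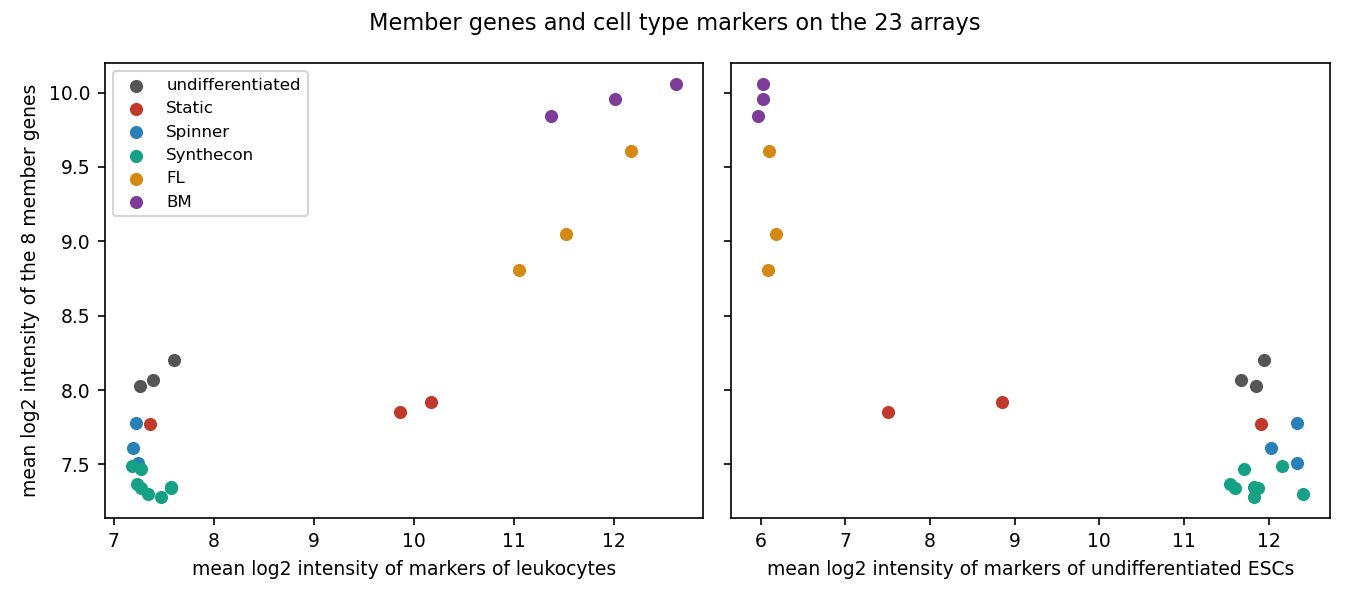
Mean log2 level of the 8 main member probes on each array against the level of cell type markers on the same array, coloured by group. Static replicates 2 and 3 carry leukocyte marker levels well above those of Static replicate 1. The members' mean was 7.77, 7.92 and 7.85 on Static replicates 1, 2 and 3 and 8.81 to 10.06 in native cells. This mean includes H2-K1, Tap1 and Psmb8, which were below background on every Static array. A link between the markers and the members was not tested.

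Across the 17 samples the members other than Psmb10 varied together. Pearson's r between pairs of these 7 genes ran from 0.69, for H2-K1 and B2m, to 0.99, for Psmb8 and Psmb9, and pairs with Psmb10 ran from 0.59 to 0.75. The samples share groups. BM had the highest mean for 7 of 8 members, and for Psmb10 FL did (11.13 ± 0.34, SD, against 11.08 ± 0.13). FL was next for 6 of the 7, while for H2-K1 the undifferentiated mean (6.61 ± 0.37) lay above the FL mean (6.51 ± 0.01), with overlapping arrays. The lowest mean was in Synthecon for 5 members, in Spinner for Tap1 and Psmb9, and in undifferentiated cells for Tapbp, and for all of these but Psmb10 the lowest group's arrays overlapped those of the next.

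Other class I heavy chains were tested from a list of 28 genes with the symbols H2-Q, H2-T, H2-M, H2-Bl and their relatives. Of these, 8 were called lower and 0 higher in Static by limma, where 10 had an unadjusted p under 0.05, and 10 lower and 2 higher in dynamic culture, with medians of -0.07 and -0.11. Among all probes 13.8% were called lower and 12.9% higher in Static, and 18.2% lower and 18.9% higher in dynamic culture. Of their 33 probes, 18 were above background on any array. H2-T23, which encodes the nonclassical molecule Qa-1 seen by the CD94/NKG2 receptors of natural killer cells, read 10.51, 11.21 and 11.09 in BM and 9.84, 9.46 and 10.25 in FL. Its other arrays lay between 7.24 and 8.62. It was 6.94-fold lower in Static (-2.79, SE 0.25, limma adjusted p = 4.1e-07) and 5.11-fold lower in dynamic culture (-2.35, SE 0.21, limma adjusted p = 3.0e-07), and its other probe gave -3.58 and -4.70. H2-Q7, of the Qa-2 family, was at least 4.01-fold lower in Static (-2.23, SE 0.15, limma adjusted p = 1.6e-08), and H2-T10, a ligand of gamma-delta T cells, at least 2.31-fold lower (-2.26, SE 0.12, limma adjusted p = 9.9e-10). Both were higher in BM than in FL, H2-Q7 by 1.64 (SE 0.17, limma adjusted p = 5.5e-05) and H2-T10 by 2.09 (SE 0.13, limma adjusted p = 2.6e-07). Class I genes are near-identical in places, so a probe may read more than 1 of them.

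H2-Bl, a class I gene of the blastocyst, went the other way. No native array was above background for it, at 5.78 to 6.58. Spinner read 9.30, 9.16 and 8.69, Synthecon 8.75 to 10.01, and undifferentiated cells 8.32, 7.18 and 7.51. Static replicate 1 read 8.11, and Static replicates 2 and 3 read 6.35 and 6.62, below background. H2-Bl was at least 4.88-fold higher in dynamic than in native cells (3.15, SE 0.30, limma adjusted p = 4.7e-07) and lower in Static than in dynamic culture (-2.20, SE 0.36, limma adjusted p = 9.8e-04), with 1 of 3 Static arrays above background. H2-M2 was the other gene called higher in dynamic culture (0.50, SE 0.13, limma adjusted p = 0.00544), with only 4 of 8 Synthecon arrays above background among the dynamic arrays.

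In the remaining machinery calls went both ways. Of 10 chaperone and peptide-trimming genes, 3 were lower and 1 higher in Static, and 4 lower and 2 higher in dynamic culture, with medians of -0.14 and -0.22. The higher counts lay near or under the 12.9% and 18.9% of all probes called higher, and the lower ones stood against 13.8% and 18.2%. Tapbpl, which encodes the tapasin relative TAPBPR, read 8.44, 8.70 and 8.43 in BM and 7.41, 8.04 and 8.38 in FL, and was below background on every day 7 array. It was at least 2.70-fold lower in Static (-1.82, SE 0.19, limma adjusted p = 2.8e-06) and at least 2.79-fold lower in dynamic culture (-2.0, SE 0.17, limma adjusted p = 1.1e-07). Erap1, the aminopeptidase that trims peptides inside the endoplasmic reticulum, was above background on 1 BM array only. Its main probe was called lower in Static (limma adjusted p = 0.00124), but no size can be given with 1 of 6 native arrays above background, and its other probe was not called. Ganab, a subunit of the glucosidase that prepares glycoproteins for calnexin, was higher in dynamic culture by 0.56 by its main probe (SE 0.12, limma adjusted p = 0.00193), while its other probes gave 0.11 and -0.09 and were not called. Sec61b, of the channel into the endoplasmic reticulum, was higher by 0.54 (SE 0.14, limma adjusted p = 0.00427).

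None of the 3 standard catalytic subunits that the immunoproteasome subunits replace was called lower, and 1 was called higher in Static and 2 in dynamic culture. Among all probes 13.8% were called lower and 12.9% higher in Static, and 18.2% lower and 18.9% higher in dynamic culture. With 3 genes, the absence of lower calls alone does not set them apart from other probes. Psmb7, the counterpart of Psmb10, was higher by 0.58 in Static (SE 0.20, limma adjusted p = 0.0368) and by 0.75 in dynamic culture (SE 0.17, limma adjusted p = 0.00214) by its main probe, while its other probes gave 0.13 and 0.14 in Static and 0.25 and 0.16 in dynamic culture and were not called. Psmb6, the counterpart of Psmb9, was higher in dynamic culture by 0.56 (SE 0.12, limma adjusted p = 0.00113) and at 0.29 in Static not called (limma adjusted p = 0.139). Psmb5, the counterpart of Psmb8, differed by -0.09 and 0.41 and was called in neither (limma adjusted p = 0.883 and 0.314). Of 5 activator and assembly genes, Psme4, which encodes the activator PA200, was higher in dynamic culture by 1.13 (SE 0.13, limma adjusted p = 4.7e-06). Psme1, a subunit of the PA28 activator that interferon-gamma induces, was lower by 0.89 (SE 0.14, limma adjusted p = 8.3e-05), and Psme3, which encodes PA28-gamma, was lower by 0.56 (SE 0.17, limma adjusted p = 0.0147). The main probes of all 3 were called the same way in Static, where the other probes of Psme4 (0.09) and Psme1 (-0.19) were not called.

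**Figure D4:**
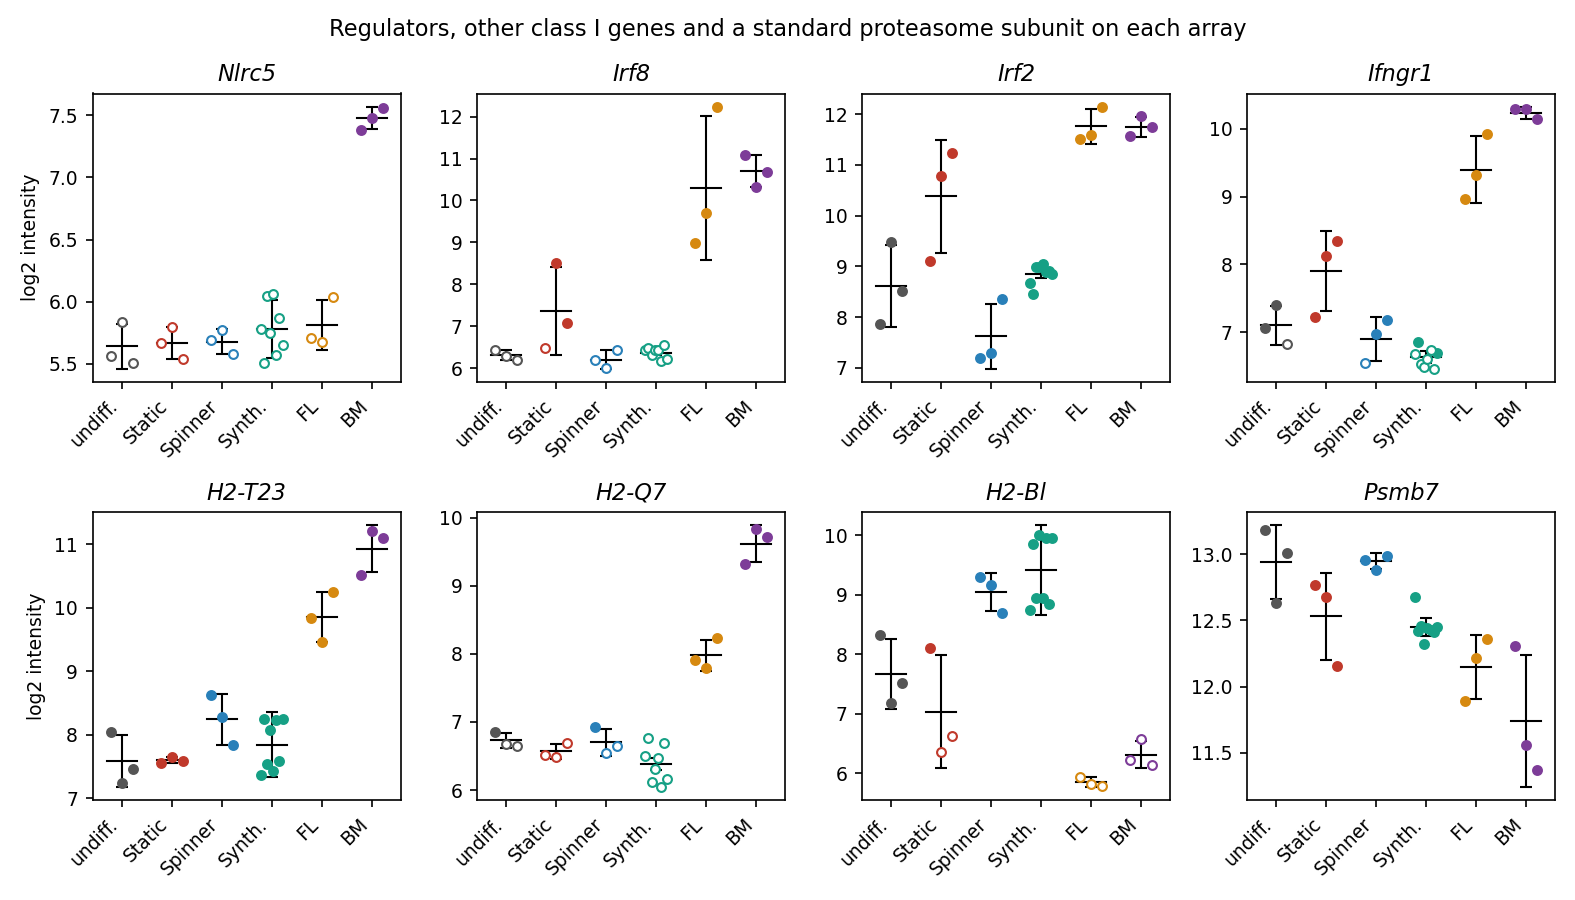
Log2 intensity of 8 further genes of the pathway on every array, by group, drawn as in the plot of member probes. Irf8, Ifngr1, H2-T23 and H2-Q7 are highest in native cells, Nlrc5 is above background on the 3 BM arrays only, and H2-Bl is above background in dynamic and undifferentiated cells but not in native ones.

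Of 23 regulators, from interferon receptors and JAK kinases to IRF, NF-kappaB and RFX factors, 12 were called lower and 0 higher in Static by limma, where 14 had an unadjusted p under 0.05, and 13 lower and 2 higher in dynamic culture, with medians of -0.63 and -0.77. The shares of all probes called lower were 13.8% and 18.2%, and of those called higher 12.9% and 18.9%. Irf8, a transcription factor of myeloid and dendritic progenitors, read 11.09, 10.33 and 10.68 in BM and 8.99, 9.69 and 12.24 in FL. No dynamic or undifferentiated array was above background for it, and Static read 6.48, 8.51 and 7.07, the first below background. It was at least 13.4-fold lower in dynamic culture (-4.21, SE 0.46, limma adjusted p = 2.1e-06) and 8.86-fold lower in Static (-3.15, SE 0.53, limma adjusted p = 3.2e-04). Irf2, which binds the same elements as Irf1, was 11.5-fold lower in dynamic culture (-3.52, SE 0.36, limma adjusted p = 9.9e-07) and 2.60-fold lower in Static (-1.38, SE 0.41, limma adjusted p = 0.021). The difference between the cultures was itself called for Irf2 (2.14, SE 0.43, limma adjusted p = 0.00388).

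Receptor chains of both interferon types were among the genes called lower. Ifngr1, the ligand-binding chain of the interferon-gamma receptor, read 10.30, 10.29 and 10.14 in BM and 8.97, 9.32 and 9.93 in FL. Static read 7.23, 8.13 and 8.35, and the dynamic arrays lay between 6.46 and 7.18. It was 3.78-fold lower in Static (-1.92, SE 0.25, limma adjusted p = 2.6e-05) and also lower in dynamic culture (-3.06, SE 0.22, limma adjusted p = 2.2e-08), where 4 of 11 arrays were above background. Ifnar2, of the type I receptor, differed by -1.52 in Static and -2.37 in dynamic culture (limma adjusted p = 7.7e-05 and 8.7e-08), with 2 of 3 and 5 of 11 arrays above background. Ifngr2 gave no single direction, since its main probe was higher in dynamic culture by 2.16 and its other probes were lower by 1.09 and 1.07. Eed, a Polycomb subunit, was the other gene called higher (0.68, SE 0.25, limma adjusted p = 0.0444). Irf1 was not called by its main probe, at -0.43 in Static and 0.27 in dynamic culture (limma adjusted p = 0.362 and 0.497). Its probes did not all read alike. Across the 6 groups the limma F test called probes 5820609, 3400288 and 1190088 (limma adjusted p = 0.002, 0.00635 and 0.0371). It did not call the main probe or 3360138 (limma adjusted p = 0.0777 and 0.191). Probe 5820609 had means of 7.28 in Static, 8.48 in Spinner, 7.83 in Synthecon, 7.89 in FL and 8.27 in BM.

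Nlrc5, named here after its values were seen and listed under an older symbol that its transcript accession paired with Nlrc5, was above background on the 3 BM arrays alone, at 7.38, 7.48 and 7.56. FL read 5.71, 5.68 and 6.04, and all other arrays lay between 5.51 and 6.06. It was at least 1.46-fold higher in BM than in FL (1.67, SE 0.13, limma adjusted p = 2.4e-06). BM stood apart from FL here as it did for H2-K1, while B2m, Tap2, Tapbp, Psmb8, Psmb9 and Psmb10 were above background on all 3 FL arrays. A link between Nlrc5 and the members was not tested.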

How the data were processed

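RNA of 23 samples was labelled and hybridised to Illumina MouseRef-8 v2 bead arrays, 1 sample an array, by a service laboratory (Asuragen). Per the study's methods the authors read the arrays with BeadStudio, subtracted the background, quantile-normalized the arrays and took log2, and the deposited log2 values (4.9 to 15.09) were used as they stand. The deposited detection p-value of each probe, from the authors' software, set the call above background (under 0.01). Deposited background-subtracted intensity values without normalization served 1 alternative, after 60.2 intensity units were added to each. The deposited log2 values carry the same offset, which compresses differences between dim probes. The number of arrays limits the precision. A second copy of the values was not used, and neither was a deposited table that holds the authors' group means, log ratios and p-values.

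The genes and lists were chosen with earlier results of these data known. Members are named with all their probes, and the probe with the highest mean over the groups stands for a gene. From each pathway list up to 4 genes with the largest absolute difference from native cells are named. H2-M2, Ifngr2 and Eed are named beyond these as genes called higher in dynamic culture, and Irf1 beside Irf2. Any other gene named after its values were seen is said to be so. Tests used limma 3.58.1 in R 4.3.3 (lmFit and eBayes with trend) on 17 samples in 1 fit of 6 groups, where dynamic is the mean of Spinner and Synthecon and native that of BM and FL. The code was tested on simulated data. A fold against a group below background is a lower bound, taken against the dimmest signal above background on each array (6.67 to 7.02 on the log2 scale). Levels summed over markers are sums of linear intensities. Gene symbols were used as in the files, with promoters from RefSeq. Alternatives covered the normalization, filters, the fit, slides, the replicate number, the methods' t-test, thresholds and each sample left out. Replicates came from the labels.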

Additional observations from a re-analysis of the deposited data

How the results depend on the processing

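The 8 of 8 members called lower in dynamic culture than in native cells stayed 7 or 8 under every alternative that counted genes. When every probe was counted, 11 of 12 were called lower there. The 8 called by the F test stayed 8 with the slide term and with the replicate block. In Static against native the methods' t-test called 5 of 8, 6 were called at 2-fold or more, without H2-K1 and Tapbp, and leaving out 1 sample gave 7 to 8. In Static against dynamic (2 called) the count was 1 with Spinner replicates 1 and 2 averaged, 1 without quantile normalization, 0 within slide 1, 0 by the methods' t-test, 0 at 2-fold or more, and 0 to 3 with 1 sample left out, 0 without the odd and 1 without the even Synthecon set. Psmb10 reversed there within slide 1, at -0.05. In BM against FL (3 called) it was 1 with only the compared groups fitted, 1 within slide 2, 0 by the methods' t-test, and 1 to 5 with 1 sample left out. In Static against day 0 (1 called) it was 0 by the methods' t-test, 2 when every probe was counted, and 1 to 1 with 1 sample left out. It was 2 without both Static replicate 1 and undifferentiated replicate 2, a choice made after seeing the data. H2-K1 was then called lower too (-0.57, limma adjusted p = 0.044). B2m was called higher in Static (1.44, limma adjusted p = 0.00143), outside this count of lower calls. In dynamic against day 0 (2 called) it was 1 within slide 1, 0 by the methods' t-test, 1 at 2-fold or more, and 1 without the even Synthecon set. In Spinner against Synthecon (1 called) it was 2 with all 23 arrays, 2 with only the compared groups fitted, 0 within slide 2, 0 by the methods' t-test and 0 without the odd set. The cause was not tested. Of the single probes' results, 1849 kept their side of the threshold, and 35 of these changed sign without being called. Another 69 lost a call, 17 gained one and 1 with a call reversed. Taking the Synthecon arrays as 4 samples, also chosen after seeing the data, changed no count of members.

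Same-numbered samples did not all deviate together (r from -0.134 to 0.265 over 45 pairs, 13 over 0.1), and Static and Synthecon alone passed 0.1 for all 3 numbers (0.197, 0.265 and 0.237). The samples share a number, and nothing in the labels pairs them. With the replicate block the counts were 8 of 8 in Static and 8 of 8 in dynamic culture against native cells and 3 in Static against dynamic, where B2m was called too (1.02, limma adjusted p = 0.046). Without quantile normalization the median of all probes in native against day 0 cells moved from 0.01 to 0.17. The share of higher among called probes moved from 48.2% to 38.1% in Static against native, from 50.9% to 36.8% in dynamic against native, from 46.1% to 67.4% in Static against dynamic, from 48.7% to 60.3% in native against day 0, and from 34.7% to 82.8% in Spinner against Synthecon.

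The count of all probes called ran from 2405 to 7176 in Static against native (6869 in the fit reported) and from 3330 to 10733 in dynamic against native (9518). In dynamic against day 0 it ran from 246 to 10037 (2635), in native against day 0 from 3261 to 11440 (8103), in Static against day 0 from 0 to 5684 (3388), in Static against dynamic from 104 to 6187 (3647), in Spinner against Synthecon from 137 to 4587 (731), and in BM against FL from 3 to 715 (315). Against native cells, regulators called lower ran from 6 to 14 in Static and from 9 to 15 in dynamic culture, and other class I genes from 5 to 9 and from 8 to 10. Probes near background, such as those of H2-K1, Tap1 and Psmb8 outside native cells, give bounds and not levels.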

Other observations

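Outside the lists, a class I gene named L-D alpha chain-like in the array's annotation (LOC547343), chosen after its values were seen, separated the native groups from all others. It read 9.08, 10.02 and 9.44 in BM and 7.13, 7.45 and 7.91 in FL, and was not above background on any other array. It was at least 3.26-fold lower in Static (-2.46, SE 0.23, limma adjusted p = 6.1e-07), at least 3.37-fold lower in dynamic culture (-2.42, SE 0.20, limma adjusted p = 8.6e-08), and higher in BM than in FL by 2.01 (SE 0.26, limma adjusted p = 5.2e-04).

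The 5 genes whose levels were most like the mean of the 8 main member probes, by Pearson's r over the 17 samples, were Ly6c1 (0.989), Fut7 (0.976), Alas1 (0.974), Ifi47 (0.973) and Tnfrsf26 (0.972). Ly6c1 encodes a surface protein of myeloid and other blood cells, and its group means were 13.89 in BM, 11.47 in FL, 7.34 in undifferentiated cells, 6.99 in Static, 6.12 in Spinner and 5.92 in Synthecon. Ifi47, an interferon-inducible GTPase, had means of 10.03 in BM, 8.64 in FL and 5.63 to 6.0 in the other groups. Alas1, the first enzyme of heme synthesis, had means of 13.44 in BM, 12.25 in FL and 10.68 to 10.99 in the others. Genes and samples are not independent here, since the samples share 6 groups.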
